A study of Mus musculus with 4 samples.

Results

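Red blood cells were followed here through 9 genes, of the 15803 genes listed for the Hoxb1 loss-of-function RNA-seq. The 9 are genes of primitive, that is embryonic, red blood cells: the embryonic globins Hba-x, Hbb-bh1 and Hbb-y, the adult alpha globin Hba-a1, the transcription factor genes Gata1 and Klf1, the heme synthesis gene Alas2, the membrane protein gene Slc4a1 and the erythropoietin receptor gene Epor. All 9 were found by symbol, under a rule that uses no measured value, but they were chosen with earlier results of these data known. The study asked which genes change in the second heart field (SHF), the progenitor population that adds myocardium to the growing heart tube, when the homeobox gene Hoxb1 is lost. The SHF region was microdissected from mouse embryos at E8.5 (embryonic day 8.5), and 2 libraries of Hoxb1 mutant embryos, labelled Hoxb1Mu, were compared with 2 libraries of wild-type (WT) embryos. Per the methods the mutants were Hoxb1-/-, so the gene was lost in every cell that uses it and not in the SHF alone, and RNA of several embryos was pooled for a replicate. All 4 libraries were amplified from 2 ng of total RNA. Libraries are numbered in accession order, so a number does not tie a mutant library to a WT library.

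Primitive red blood cells arise in the blood islands of the yolk sac and enter the embryo when the heart begins to beat. In the mouse they carry embryonic hemoglobin, whose chains include the alpha-like chain of Hba-x and the beta-like chains of Hbb-bh1 and Hbb-y. They switch from Hbb-bh1 toward Hbb-y as they mature. Adult globins dominate in the later, liver-derived red cells, although the adult globin Hba-a1 is also counted here among the genes of primitive cells. GATA1 and KLF1 are the transcription factors that drive erythroid genes, binding GATA sequences and CACCC sequences. The microdissected region was not sorted, so its red cells are those that came along with the tissue, and fewer cells of a type and less RNA per cell cannot be told apart in such samples.

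The promoters of an embryonic alpha-like, an embryonic beta-like and an adult alpha globin gene are shown as examples of these kinds of globin gene. Hba-x and Hbb-y had the same order of libraries, and Hba-a1 had another. Each window runs 5′ to 3′ on the strand of the gene, from 250 bases before to 50 bases after its start in RefSeq (GRCm38.p6), with capitals marking the motifs searched on either strand, which were GATAA for GATA factors, CACCC for KLF factors, CCAAT for the CCAAT box and TATAA for the TATA box.
Hba-x promoter, chr11:32276350-32276649, plus strand: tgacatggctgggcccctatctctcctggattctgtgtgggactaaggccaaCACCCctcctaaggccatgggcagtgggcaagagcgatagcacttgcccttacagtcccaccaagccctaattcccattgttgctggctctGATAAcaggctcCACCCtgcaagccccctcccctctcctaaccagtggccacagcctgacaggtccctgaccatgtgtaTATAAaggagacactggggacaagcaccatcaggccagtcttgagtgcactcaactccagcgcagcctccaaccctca
Hbb-y promoter, chr7:103853158-103853457, minus strand: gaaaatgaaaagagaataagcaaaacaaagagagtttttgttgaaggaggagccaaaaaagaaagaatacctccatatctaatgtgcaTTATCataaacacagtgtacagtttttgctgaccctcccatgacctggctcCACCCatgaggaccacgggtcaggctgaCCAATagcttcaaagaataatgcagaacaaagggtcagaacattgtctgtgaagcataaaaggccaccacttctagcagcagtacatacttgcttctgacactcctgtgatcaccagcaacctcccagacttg
Hba-a1 promoter, chr11:32283422-32283721, plus strand: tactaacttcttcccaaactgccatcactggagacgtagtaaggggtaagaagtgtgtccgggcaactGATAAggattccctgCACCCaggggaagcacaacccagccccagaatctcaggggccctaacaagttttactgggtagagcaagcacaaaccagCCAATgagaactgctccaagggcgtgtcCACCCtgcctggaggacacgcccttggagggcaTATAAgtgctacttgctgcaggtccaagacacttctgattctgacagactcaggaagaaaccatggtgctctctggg

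A GATAA match, read on either strand, began at position -107 in Hba-x, -162 in Hbb-y and -182 in Hba-a1, counted from the RefSeq start. The gene coordinates given below start further upstream, inside these windows, at 32276400 for Hba-x and 32283511 for Hba-a1. CACCC matches began at -198 and -95 in Hba-x, at -111 in Hbb-y and at -167 and -60 in Hba-a1. A CCAAT match was found at -83 in Hbb-y and at -88 in Hba-a1, and none in the window of Hba-x, whereas TATAA was found at -28 in Hba-x and -27 in Hba-a1. Of the 9 genes, 7 had a window in the table, and Hbb-bh1 and Slc4a1 are named only. GATAA was in 6 of these 7 windows, CACCC in 7, CCAAT in 3 and TATAA in 3, against 25.4%, 57.5%, 37.4% and 24.9% of all 32851 promoter windows of this length. None of the printed matches overlapped another, and a match is a description of the letters only.

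The libraries held 31331595 to 34383760 reads in listed genes. Hoxb1 stood at normalised counts of 137 and 167 in Hoxb1Mu 1 and Hoxb1Mu 2, against 682 and 617 in WT 1 and WT 2, a log2 fold change of -2.09 ± 0.14 (SE, n = 2 and 2; limma adjusted p = 0.0806, DESeq2 adjusted p = 2.73e-21). Y-linked genes separated the libraries in another way: Kdm5d, Ddx3y, Eif2s3y and Uty lay between 1131 and 2205 in Hoxb1Mu 1 and between 0 and 4.81 in the other 3 libraries. Xist, the RNA that silences an X chromosome in female cells, was at 111 and 5935 in Hoxb1Mu 1 and 2, against 26992 and 32024 in WT 1 and 2. Gata1 and Alas2 are X-linked, and the part of these differences between embryos in their values was not tested.

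The embryonic globins differed widely between the WT libraries. Hba-x, the zeta-type alpha chain of the embryo (chromosome 11, 32276400 to 32278116, mm10), had 889 and 299 normalised counts in Hoxb1Mu 1 and 2, against 142 and 5927 in WT 1 and 2. Both mutant libraries therefore lay between the WT libraries. The ratio of WT 2 over WT 1 was 41.6, with a 95% exact binomial interval of 35.1 to 49.8, whereas that of Hoxb1Mu 1 over Hoxb1Mu 2 was 2.97 (2.61 to 3.39). Such intervals cover counting error only, since amplified reads without molecular identifiers are not independent molecules.

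Hbb-bh1, the earlier of the embryonic beta-like chains (chromosome 7, 103841637 to 103843164), had the same order of libraries. Its normalised counts were 1272 and 414 in Hoxb1Mu 1 and 2, against 272 and 8973 in WT 1 and 2. WT 2 exceeded WT 1 by 33-fold (29.1 to 37.5), and Hoxb1Mu 1 exceeded Hoxb1Mu 2 by 3.07-fold (2.75 to 3.43). Per kb of exon it had the highest level of the 9 genes in each library, at 2076 and 675 normalised counts per kb in Hoxb1Mu 1 and 2, against 444 and 14638 in WT 1 and 2.

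Hbb-y, the later embryonic beta-like chain (chromosome 7, 103851749 to 103853216), was lower per kb of exon than Hba-x and Hbb-bh1 in each library, at 251 and 127 normalised counts per kb in Hoxb1Mu 1 and 2, against 40.3 and 824 in WT 1 and 2. It had 159 and 80.2 normalised counts in Hoxb1Mu 1 and 2, against 25.5 and 521 in WT 1 and 2, so the mutant libraries again lay inside the WT range. WT 2 was 20.4-fold above WT 1 (13.6 to 32.2) and Hoxb1Mu 1 was 1.98-fold above Hoxb1Mu 2 (1.51 to 2.61).

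**Figure D1:**
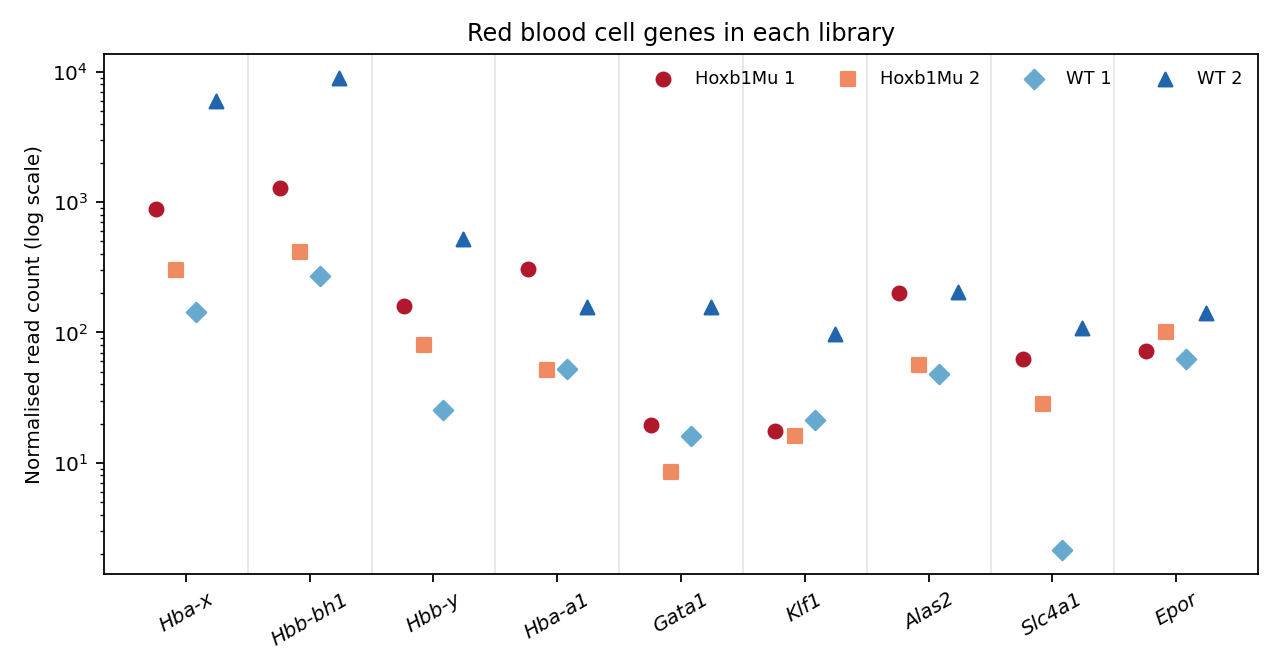
Normalised read count (log axis) of the 9 red blood cell genes in Hoxb1Mu 1, Hoxb1Mu 2, WT 1 and WT 2, 1 point a library. WT 2 is highest for 8 of the 9 genes, and the libraries of a genotype lie far apart for the globins.

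The adult globin did not follow this order. Hba-a1 (chromosome 11, 32283511 to 32284465) had 305 and 51.9 normalised counts in Hoxb1Mu 1 and 2, against 52.1 and 158 in WT 1 and 2. It was the only one of the 9 genes that was highest in Hoxb1Mu 1, which exceeded Hoxb1Mu 2 by 5.87-fold (4.39 to 7.98) and WT 2 by 1.93-fold (1.59 to 2.35). WT 2 exceeded WT 1 by 3.03-fold (2.19 to 4.26). Of the 50-base windows of the Hba-a1 transcript, 72.3% also occur in its near-identical copy Hba-a2, so how reads were divided between these genes is uncertain, whereas no window of the other 8 genes is shared in this way.

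The other adult globins showed the same contrast between mutant libraries, but not between WT libraries. WT 2 over WT 1 was 0.775 (0.644 to 0.932) for Hbb-bs, 0.876 (0.602 to 1.27) for Hbb-bt and 1.51 (0.982 to 2.35) for Hba-a2. Hbb-bs, the main adult beta chain, had 1366 and 234 normalised counts in Hoxb1Mu 1 and 2, against 273 and 212 in WT 1 and 2. Hbb-bt had 289 and 48.1, against 64.8 and 56.7, and Hba-a2 had 195 and 36.8, against 38.2 and 57.7, in the same libraries. Hbb-bs and Hbb-bt share 53.2% and 58.3% of their windows with each other, and the sum over all adult globins avoids the question of how reads were split.

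Summed over the 4 adult globins, normalised counts were 2154 and 371 in Hoxb1Mu 1 and 2, against 428 and 484 in WT 1 and 2. Summed over the 3 embryonic globins they were 2320 and 793, against 440 and 15421. The embryonic sum of WT 2 was thus 35.1-fold that of WT 1 while the adult sum was 1.13-fold, and between Hoxb1Mu 1 and Hoxb1Mu 2 the ratios were 2.93 and 5.81. Globin reads of both kinds were 0.0138% and 0.00359% of all listed reads in Hoxb1Mu 1 and 2, against 0.00261% and 0.0483% in WT 1 and 2.

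The composition of the globin reads therefore set WT 2 apart from the other 3 libraries. Adult globins made up 48.1% (95% exact binomial interval 46.7 to 49.6) of globin reads in Hoxb1Mu 1 and 31.8% (29.3 to 34.5) in Hoxb1Mu 2, against 49.3% (45.8 to 52.8) in WT 1 and 3.04% (2.79 to 3.32) in WT 2. Weighted per kb of exon the adult share was 46.6% and 30.5% in the mutant libraries, against 47.2% and 2.84% in WT 1 and WT 2. Hoxb1Mu 1 and WT 1 did not differ in this share beyond their counting intervals, although Hoxb1Mu 1 had more reads of each globin.

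**Figure D2:**
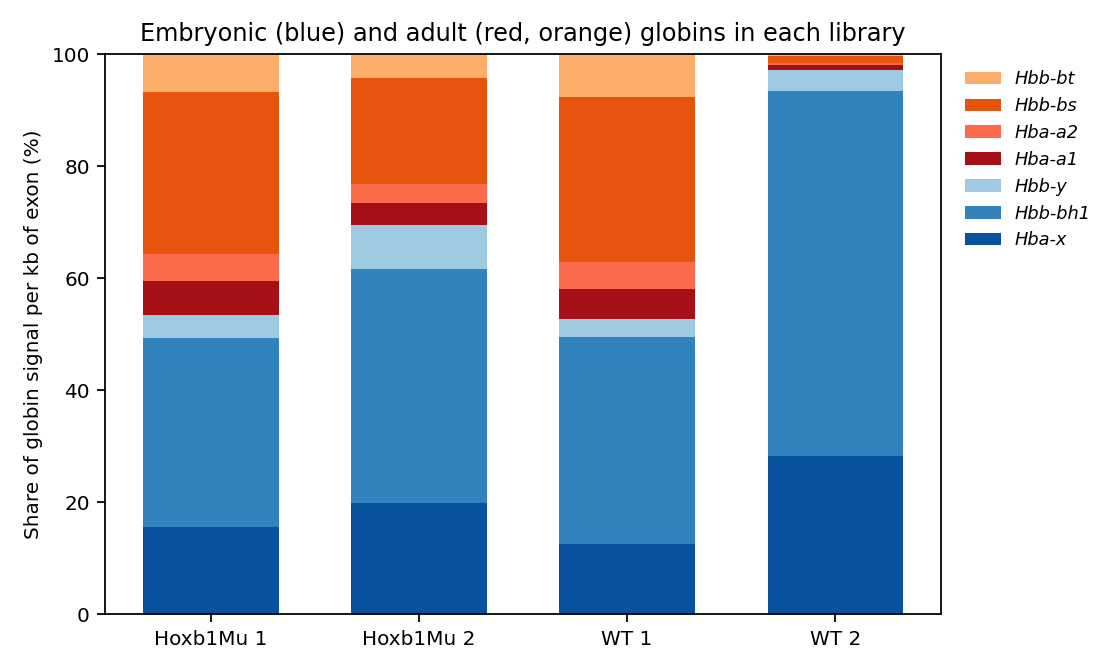
Stacked bars of the share (%) of globin signal per kb of exon taken by each of 3 embryonic globins (blue) and 4 adult globins (red and orange) in each library. Adult globins take 46.6% and 30.5% in Hoxb1Mu 1 and 2, against 47.2% and 2.84% in WT 1 and 2.

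The transcription factor genes were read at low depth outside WT 2. Gata1, the X-linked gene of the zinc finger factor needed for erythroid maturation (chromosome X, 7959260 to 7978071), had 19.5 and 8.49 normalised counts in Hoxb1Mu 1 and 2, against 15.9 and 156 in WT 1 and 2. Hence 3 libraries lay close together and WT 2 was 9.78-fold above WT 1 (5.76 to 17.9). Hoxb1Mu 1 and Hoxb1Mu 2 could not be separated at this depth, with a ratio of 2.29 (0.989 to 5.76).

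Klf1, the gene of a zinc finger factor that activates globin and membrane genes (chromosome 8, 84901928 to 84905291), had 17.4 and 16.0 normalised counts in Hoxb1Mu 1 and 2, against 21.2 and 97.1 in WT 1 and 2. It was the only one of the 9 genes whose groups did not overlap, as both mutant libraries lay below WT 1. Counting error did not separate them from WT 1, with ratios of 0.820 (0.404 to 1.65) for Hoxb1Mu 1 and 0.755 (0.371 to 1.52) for Hoxb1Mu 2. Among all 15760 genes tested, 53.5% had groups that did not overlap and 27.1% were lower in Hoxb1Mu in this way, so 1 of 9 is below the background. The ratio of WT 2 over WT 1 was 4.57 (2.81 to 7.80) and that of Hoxb1Mu 1 over Hoxb1Mu 2 was 1.09 (0.522 to 2.27).

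Alas2, which encodes the erythroid form of the enzyme at the entry to heme synthesis (chromosome X, 150547375 to 150570638), paired the libraries differently. Its normalised counts were 199.9 and 56.6 in Hoxb1Mu 1 and 2, against 47.8 and 204.9 in WT 1 and 2. Hoxb1Mu 1 and WT 2 could not be told apart by counting error, with a ratio of 0.976 (0.800 to 1.19). The ratio of Hoxb1Mu 1 over Hoxb1Mu 2 was 3.53 (2.63 to 4.80), against 4.29 (3.09 to 6.05) for WT 2 over WT 1.

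Slc4a1, the gene of band 3, the anion exchanger of the red cell membrane (chromosome 11, 102348824 to 102366203), was nearly undetected in WT 1. It had 62.5 and 28.3 normalised counts in Hoxb1Mu 1 and 2, against 2.12 and 108 in WT 1 and 2, and the value of WT 1 came from 2 reads. The ratio of WT 2 over WT 1 was 50.7 with a counting interval of 13.7 to 424, and that of Hoxb1Mu 1 over Hoxb1Mu 2 was 2.21 (1.41 to 3.55).

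Epor, the receptor through which erythropoietin keeps red cell precursors alive (chromosome 9, 21958897 to 21963506), varied least. It had 71.8 and 100.0 normalised counts in Hoxb1Mu 1 and 2, against 62.7 and 140.4 in WT 1 and 2. WT 2 was 2.24-fold above WT 1 (1.65 to 3.09). Epor was also the only gene of the 9 that was lower in Hoxb1Mu 1 than in Hoxb1Mu 2, with a ratio of 0.718 (0.523 to 0.980).

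Set side by side, the libraries of a single genotype differed in these genes. In WT 2 over WT 1, 9 of 9 genes were higher and 9 were at least 2-fold higher, with a median log2 difference of 3.21, whereas 2.29% of all tested genes were at least 2-fold higher and 0.463% at least 2-fold lower. In Hoxb1Mu 1 over Hoxb1Mu 2, 8 of 9 were higher and 6 were at least 2-fold higher, with a median of 1.12 and a background of 3.03% higher and 0.711% lower. All tested genes had median log2 differences of 0.0041 and 0.0014 in these comparisons, with SDs of 0.37 in the WT pair and 0.50 in the mutant pair. A comparison of 1 library with 1 has no replicate error, so no test was made.

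Across genotypes the direction depended on the library of WT that was used. Against WT 1, 8 of 9 genes were higher in Hoxb1Mu 1, 6 of them at least 2-fold (background 3.08% higher and 0.615% lower), and 6 of 9 were higher in Hoxb1Mu 2, 3 of them at least 2-fold (background 2.41% higher and 3.52% lower). Against WT 2, 8 of 9 genes were lower in Hoxb1Mu 1, 5 of them at least 2-fold (background 1.42% higher and 1.17% lower), and 9 of 9 were lower in Hoxb1Mu 2, 8 of them at least 2-fold (background 1.63% higher and 5.04% lower). The median log2 differences were 2.22 and 0.60 against WT 1, and -1.71 and -2.53 against WT 2. Levels thus placed the mutant libraries between the WT libraries, with 8 of the 9 genes highest in WT 2 and 6 lowest in WT 1. The exceptions in the lowest library were Hba-a1, Gata1 and Klf1, which were lowest in Hoxb1Mu 2.

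**Figure D3:**
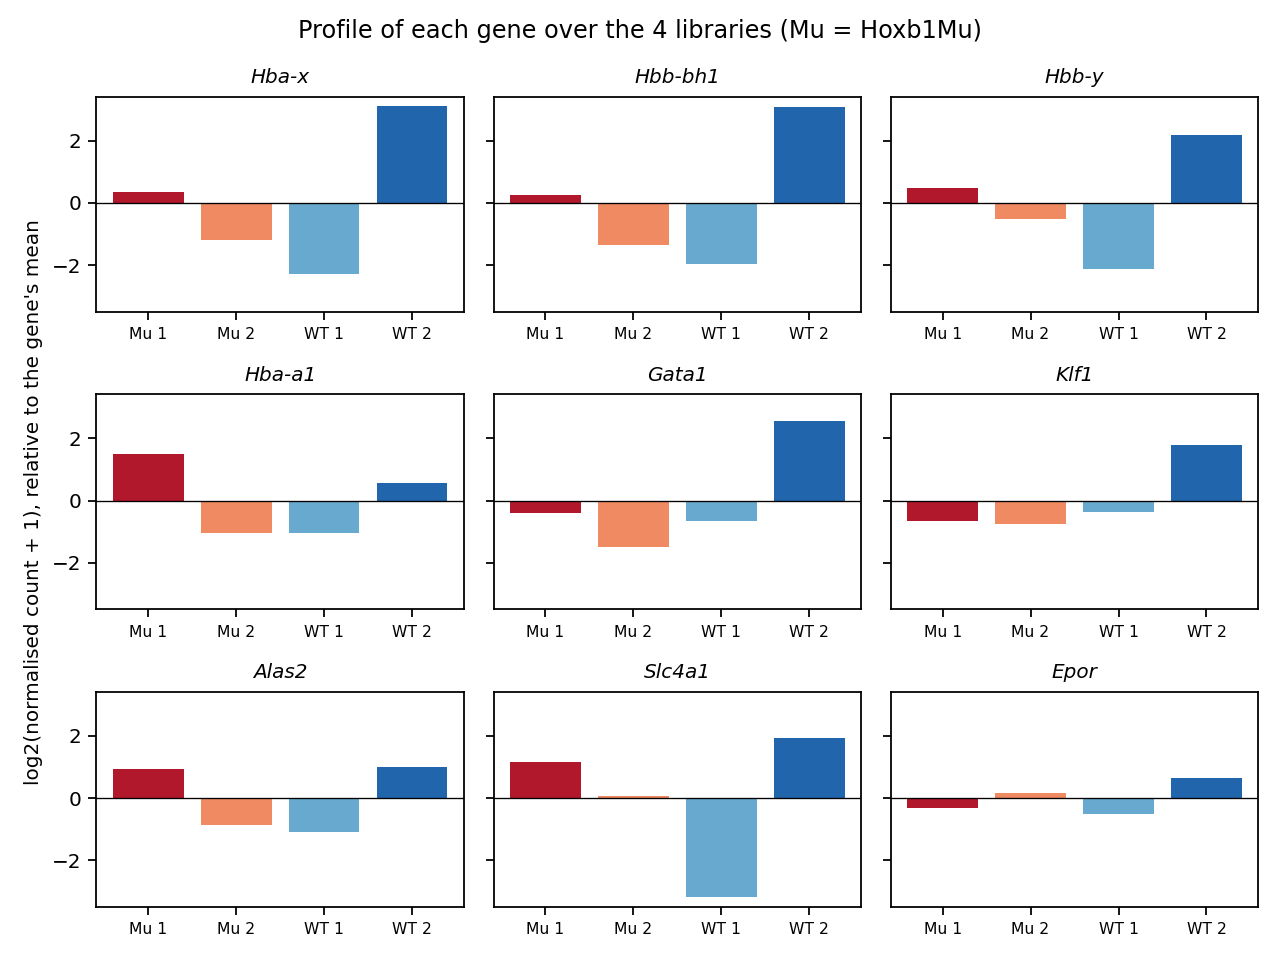
Level of each gene in each library as log2(normalised count + 1) relative to the mean of that gene over the 4 libraries, 1 bar a library. WT 2 has the tallest bar for 8 of the 9 genes, and Hba-a1 has it in Hoxb1Mu 1.

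With this spread, no difference between genotypes was called in the 9 genes. Under limma on log2(normalised count + 1), 0 of 9 passed an adjusted p of 0.05 and 0 of 9 had an unadjusted p under it, with 0% and 18.6% of 15760 tested genes as background. DESeq2 on the recovered reads called 0 of the 5 members to which it gave an adjusted p, against 4.72% of the 11788 genes with one, and the edgeR quasi-likelihood test called 0 of 9, against 0%. The median log2 fold change of the 9 genes was -0.15 by limma, beside 0.00061 over all tested genes, and -1.19 by DESeq2 and -1.20 by edgeR.

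The intervals of the fold changes were wide. Hba-x had a log2 fold change of Hoxb1Mu over WT of -0.84 ± 1.62 (SE, n = 2 and 2; limma adjusted p = 0.805), with a 95% interval of -4.79 to 3.12, and its DESeq2 estimate was -2.35 (adjusted p = 0.614). Hbb-bh1 had -1.11 ± 1.53 (limma adjusted p = 0.725) and -2.45 by DESeq2 (adjusted p = 0.568), and Hbb-y had -0.046 ± 1.28 by limma (0.987). Hence these libraries could not tell a large loss of embryonic globin RNA from a large gain.

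The erythroid factors had the lowest estimates of the 9 genes under limma, whereas under DESeq2 and edgeR Hbb-bh1 and Hba-x lay below Klf1. Gata1 had -1.89 ± 1.03 (limma adjusted p = 0.370, 95% interval -4.40 to 0.63), and Klf1 had -1.40 ± 0.68 (limma adjusted p = 0.332, interval -3.08 to 0.28). DESeq2 gave them unadjusted p-values of 0.00551 and 0.0240 but no adjusted p, as its filter on low counts set them aside. Both estimates rested on WT 2, since without it the limma values were -0.28 for Gata1 and -0.33 for Klf1.

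The remaining genes lay near or above 0. Hba-a1 had 0.47 ± 0.88 (limma adjusted p = 0.799), Alas2 0.10 ± 0.81 (0.955), Slc4a1 1.23 ± 1.54 (0.697) and Epor -0.15 ± 0.40 (0.864). Epor had the narrowest interval, from -1.13 to 0.84. Leaving out 1 library turned the direction of 7 of the 9 genes. Without WT 2, Hba-x, Hbb-bh1, Hbb-y and Epor took values of 1.85, 1.41, 2.10 and 0.43, and without WT 1, Hba-a1, Alas2 and Slc4a1 took values of -0.32, -0.94 and -1.33. DESeq2 gave Hbb-y a log2 fold change of -2.13 without WT 1 and of 2.23 without WT 2, against -1.19 (DESeq2 adjusted p = 0.811) with all 4 libraries.

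**Figure D4:**
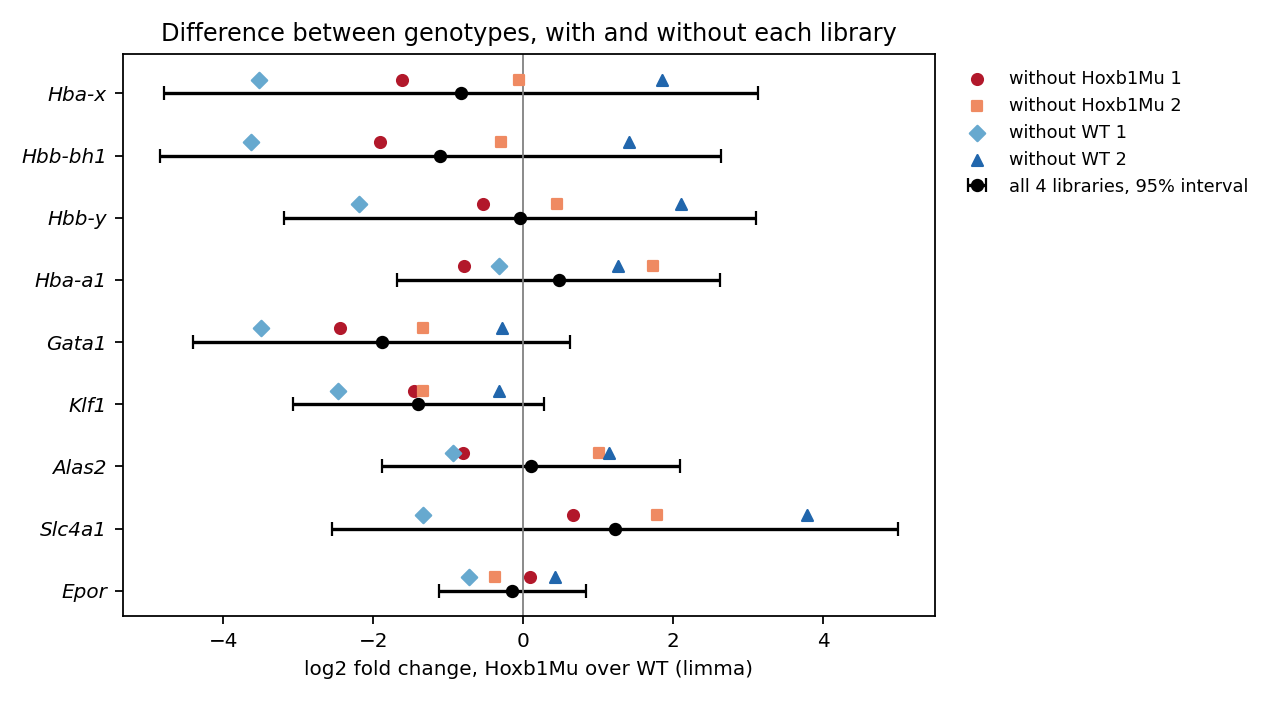
Log2 fold change of Hoxb1Mu over WT for each gene with its 95% limma interval (black) and the value without each library in turn (coloured). Every interval spans 0, and leaving out WT 2 moves Hba-x to 1.85 and Hbb-bh1 to 1.41.

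Ratios between genes within a library do not depend on how deeply it was read. The ratio of Hbb-bh1 to Hbb-y reads was 8.01 and 5.16 in Hoxb1Mu 1 and 2, against 10.7 and 17.2 in WT 1 and 2. The mutant ratios were lower than both WT ratios, with an exact permutation p of 0.333 (2-sided, 0.667 adjusted over 6 ratios), which is the smallest p that 2 against 2 libraries can give. The counting intervals of Hoxb1Mu 1 (6.77 to 9.52) and WT 1 (7.01 to 17.0) overlapped, while that of WT 2 (15.8 to 18.8) lay above those of the mutant libraries.

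The ratios to Gata1 describe the later erythroid genes against an early factor. Alas2 to Gata1 was 10.3 and 6.67 in Hoxb1Mu 1 and 2, against 3.0 and 1.31 in WT 1 and 2, and Slc4a1 to Gata1 was 3.21 and 3.33, against 0.133 and 0.691. Neither pair of groups overlapped, again with an exact permutation p of 0.333 (adjusted 0.667), and the values rest on 9 to 19 Gata1 reads in each library other than WT 2. By counting error Alas2 to Gata1 did not separate Hoxb1Mu 2 (3.29 to 15.3) from WT 1 (1.64 to 5.79), while for Slc4a1 to Gata1 the lowest mutant bound was 1.54 and the highest WT bound 0.885. Klf1 to Gata1 (0.895 and 1.89, against 1.33 and 0.623) and Epor to Gata1 (3.68 and 11.8, against 3.93 and 0.901) overlapped between genotypes. Hba-a1 to Hba-x was 0.343 and 0.174, against 0.366 and 0.0266, and overlapped as well.

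Other erythroid genes were read from 6 lists with 80 tested genes. Between genotypes limma called 0 of the 80, and DESeq2 called 4 of the 60 with an adjusted p (6.67%, against 4.72% of all such genes). The gene of the stem cell factor receptor, Kit, rose in the mutants by 0.31 on the log2 scale (adjusted p of DESeq2 = 0.0318). The heme synthesis enzyme gene Cpox (-0.35, 0.0282), the iron-sulfur cluster gene Glrx5 (-0.27, 0.0273) and the glucose transporter gene Slc2a1 (-0.20, 0.00526) were lower. Slc2a1 had 48001 and 45388 normalised counts in Hoxb1Mu 1 and 2, against 55104 and 52410 in WT 1 and 2. WT 2 over WT 1 was 0.963 for Kit, 1.19 for Cpox, 1.08 for Glrx5 and 0.951 for Slc2a1, against 35.1 for the embryonic globin sum. The part of red cells in the values of these 4 genes was not tested. The calls changed with the libraries used: with 1 library left out DESeq2 called 1 to 3 of the 80, Slc2a1 lost its call without WT 1 and without Hoxb1Mu 2, Cpox kept it only without WT 1, and Kit and Glrx5 lost it whichever library was left out. Their log2 fold changes kept their direction, at 0.24 to 0.38 for Kit, -0.33 to -0.21 for Glrx5, -0.48 to -0.22 for Cpox and -0.24 to -0.16 for Slc2a1.

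Between the WT libraries, 14 of the 80 genes were at least 2-fold higher in WT 2, and 9 of these belonged to the 17 tested genes of the red cell membrane and skeleton (median log2 difference 1.0). Epb42, the gene of membrane protein 4.2, chosen as an example after its values were seen, had 9.23 and 6.60 normalised counts in Hoxb1Mu 1 and 2, against 8.5 and 74.1 in WT 1 and 2. As for Gata1, WT 2 was high and the other libraries were low. The genes of that list with the highest normalised counts, Slc2a1, Cd24a and Epb41, differed by less than 1.2-fold between the WT libraries.

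Among transcription factor genes, Nfe2 had 9.23 and 10.4 normalised counts in Hoxb1Mu 1 and 2, against 10.6 and 54.8 in WT 1 and 2, and Gfi1b had 3.08 and 7.55, against 4.25 and 32.7. These factors act with GATA1 in erythroid and megakaryocytic cells, and both were high in WT 2 alone. Their list held 14 tested genes, of which 3 were at least 2-fold higher in WT 2 than in WT 1 (median log2 difference 0.15). Ldb1 (7623 and 8182, against 7013 and 7556) and Tal1 (792 and 939, against 776 and 846), whose products join the GATA1 complex but are also made in other tissues, were nearly level. Of the 18 tested genes of heme synthesis and iron uptake none was 2-fold higher in WT 2, and their median log2 difference was 0.16. Among them the transferrin receptor gene Tfrc had 9297 and 10341 normalised counts in Hoxb1Mu 1 and 2, against 11415 and 10451 in WT 1 and 2. The lists of signalling genes (11 tested, median -0.0039) and of enzymes and maturation genes (15 tested, 0.11) had 0 and 2 genes at least 2-fold higher in WT 2.

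**Figure D5:**
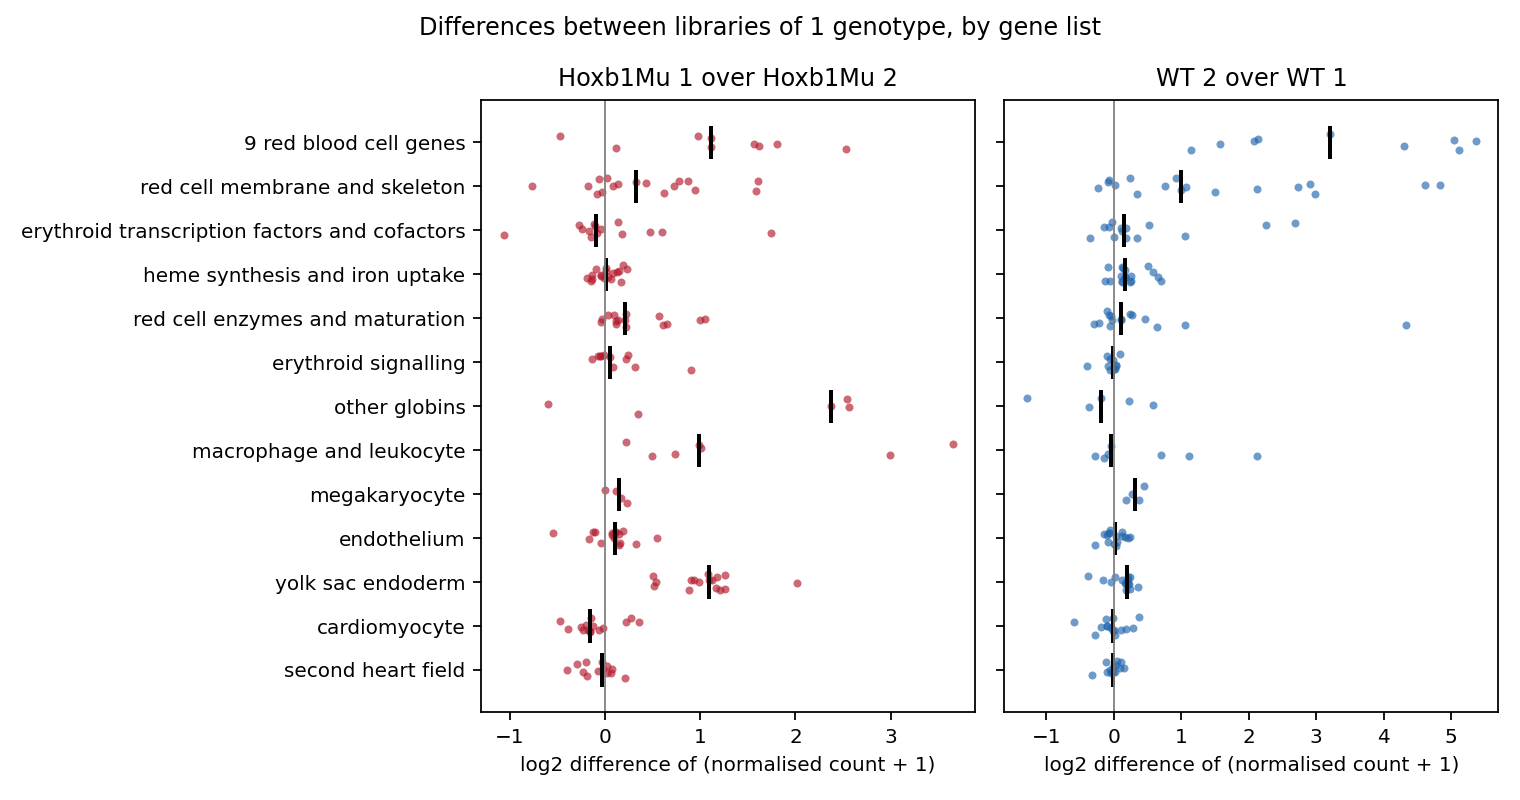
Difference of log2(normalised count + 1) between libraries of a genotype for each tested gene of 13 lists, Hoxb1Mu 1 over Hoxb1Mu 2 on the left and WT 2 over WT 1 on the right, with black bars at the medians. The 9 red blood cell genes have medians of 1.12 and 3.21, beside 1.09 and 0.19 for yolk sac endoderm genes.

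Markers of other cell types moved beside some of these values. Of 16 macrophage and leukocyte genes 7 were measured, with summed normalised counts of 572 and 312 in Hoxb1Mu 1 and 2, against 388 and 405 in WT 1 and 2, and none of the 7 was at 0. All 7 were higher in Hoxb1Mu 1 than in Hoxb1Mu 2 (median log2 difference 0.98), as the adult globins were, and 3 of 7 were higher in WT 2 than in WT 1 (-0.043). Lyz2, a macrophage lysozyme gene, had 74.9 and 8.49, against 24.4 and 23.1. The part of such cells in the globin values was not tested.

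Genes of the placenta and uterus, listed after the values had been seen, differed between the libraries of a genotype. The 7 measured of 12 trophoblast genes summed to 1666 and 208 normalised counts in Hoxb1Mu 1 and 2, against 495 and 1538 in WT 1 and 2, and the 8 uterus and decidua genes to 6841 and 2723, against 2853 and 6243. No measured gene of either list was at 0. All 15 were higher in Hoxb1Mu 1 than in Hoxb1Mu 2 and in WT 2 than in WT 1. Of the trophoblast genes 5 were highest in Hoxb1Mu 1 and 2 in WT 2, and of the uterus and decidua genes 2 and 6. Prl8a2, a prolactin-family gene of the decidua, had 3365 and 397, against 686 and 1823. The part of this tissue, and of maternal blood with its adult globins, in the red blood cell values was not tested.

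Yolk sac endoderm genes did not share the contrast between the WT libraries. The 16 measured of 18 genes summed to 114718 and 60835 normalised counts in Hoxb1Mu 1 and 2, against 172892 and 170805 in WT 1 and 2, and 0 of 16 differed by 2-fold between the WT libraries. All 16 were higher in Hoxb1Mu 1 than in Hoxb1Mu 2 (median log2 difference 1.09), and all 16 were below both WT libraries in both mutant libraries (background 27.1%), with 0 called by limma and 0 by DESeq2. Apob had 23517 and 10523, against 45985 and 35341. The 16 endothelial genes, which mark the vessels that hold blood, had median log2 differences of 0.10 in the mutant pair and 0.019 in the WT pair, and Kdr had 4859 and 5244, against 4177 and 4546.

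The genes whose profile over the 4 libraries was most like the mean of the 9 were found among 11882 genes with a mean of at least 100. The measure was the root mean square difference of log2 levels, each centred on its mean. Hoxa11 was nearest (0.43; 132 and 66.0 normalised counts in Hoxb1Mu 1 and 2, against 47.8 and 219 in WT 1 and 2). It was followed by the erythroid ankyrin gene Ank1 (0.57; 77.9 and 70.7, against 54.2 and 239) and by Hoxa10 (0.59; 209 and 158, against 92.4 and 358). Hoxa10 and Hoxa11 are also in the list of the allantois and extraembryonic mesoderm and in that of the uterus and decidua. Sphk1 (0.72), Ada (0.72), Srgn (0.73), Ampd3 (0.74), Mt1 (0.76), Adamts5 (0.79) and Lbp (0.80) completed the nearest 10, and with 4 libraries such a likeness is a description only.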

How the data were processed

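RNA-seq of the SHF region from 4 E8.5 libraries (2 Hoxb1Mu, 2 WT) was used, with groups from the genotype labels. The processing notes of the submitters name bcl2fastq 2.17.1.14, STAR 2.5.2 with the mm10 genome, HTSeq and DESeq2. The methods also describe another path, with RSEM and edgeR, for which they name an Ensembl release. Whether that release stands behind the deposited values, and whether reads were counted by strand, is not given in the sources used here. The deposited signal is a normalised count, that is reads divided by a size factor for each library. The authors also deposited their own comparison in 4 columns, a log2 fold change, a test score and the p-value with its adjusted p-value, and none of these was used. In 13 genes the symbol had been turned into a date.

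All values (100%, within 0.001 reads) were whole multiples of what 1 read is worth in the library, so reads were recovered. Genes with a mean normalised count under 10 were left out (43 of 15803). The main test was limma 3.58.1 with trend on log2(normalised count + 1), 2-sided, adjusted over all 15760 genes by Benjamini-Hochberg. DESeq2 1.42.0 and edgeR 4.0.16 on the recovered reads were alternatives, with other pseudocounts, filters and scalings and each library left out in turn. The code was tested on simulated data. Nothing says that the samples of a genotype came from separate litters, so p-values measure only the spread between these libraries. Exon lengths and coordinates came from GENCODE release 21 for mouse, in which 15391 genes (97.4%) matched by symbol. Promoters came from RefSeq (GRCm38.p6).

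The 9 genes and the 14 gene lists beside them were chosen with earlier results of these data known, and 38 of the 207 list genes are not analysed here. The trophoblast, uterus and decidua, sex-linked and Hoxb1 lists were added after the values were seen. Named genes were the 9, up to 4 genes of a list with the highest means and its DESeq2 calls, the 10 nearest profiles and Hoxb1. Other genes were named after their values were seen.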

Additional observations from a re-analysis of the deposited data

How the results depend on the processing

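Members called numbered 0 in every limma, DESeq2 and edgeR fit on all 4 libraries. Calls of members with a library left out are not weighed, as 1 arm then holds 1 library. DESeq2 moved Hbb-y from -1.19 to -2.13 without WT 1 and to 2.23 without WT 2, each with 1 WT library left in the fit. With a library left out, the median log2 fold change of the 9 genes ranged from -2.20 to 1.26, and the count of genes called by limma from 0 to 941, against 0 with all libraries. DESeq2 called 556 genes. By gene, leaving out a library gave -3.52 to 1.85 for Hba-x, -3.63 to 1.41 for Hbb-bh1, -2.20 to 2.10 for Hbb-y, -0.80 to 1.74 for Hba-a1, -0.94 to 1.14 for Alas2, -1.33 to 3.79 for Slc4a1 and -0.72 to 0.43 for Epor, while Gata1 (-3.49 to -0.28) and Klf1 (-2.47 to -0.33) kept their sign. DESeq2 and edgeR gave lower values than limma for the median (-1.19 and -1.20, against -0.15), for Hba-x (-2.35 and -2.36, against -0.84), Hbb-bh1 (-2.45 and -2.46, against -1.11) and Hbb-y (-1.19 and -1.20, against -0.046). Hba-a1 was higher under them (0.76 and 0.76, against 0.47), Alas2 nearer to 0 (0.021 and 0.015, against 0.10) and Epor lower (-0.24 and -0.24, against -0.15). Slc4a1 changed sign (-0.27 and -0.29, against 1.23). Its mean normalised count was 45.4 in Hoxb1Mu and 54.9 in WT, whereas limma compares means of log2 values, and WT 1 stood at 2.12. Of 115 values of single members, which do not cover DESeq2 with a library left out, 13 changed direction. The counts of DESeq2 calls in the erythroid lists with a library left out were added after seeing the data. The fits that leave out a library hold 1 library in an arm, which is assumed to vary like the others. Gata1, Klf1 and Slc4a1 were limited by depth, with 9 to 20 reads of Gata1 and Klf1 in 3 libraries. No paired analysis was possible because the labels give no replicate numbers that tie a Hoxb1Mu library to a WT library.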

Other observations

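Runx1, which starts the definitive blood program, had 195 and 57.5 normalised counts in Hoxb1Mu 1 and 2, against 136 and 285 in WT 1 and 2. Among megakaryocyte genes, 4 of 13 were measured. Itga2b, an integrin gene of early blood cells and platelets, had 238 and 211, against 279 and 363, and Itgb3 had 468 and 398, against 320 and 439. Limma called 0 of these 4 genes between the genotypes and DESeq2 also called 0. Their median log2 difference was 0.14 for Hoxb1Mu 1 over Hoxb1Mu 2 and 0.32 for WT 2 over WT 1, and none differed by 2-fold in either pair. Aqp1, a water channel gene of red cells and vessels, had 186 and 60.4 normalised counts in Hoxb1Mu 1 and 2, against 92.4 and 195 in WT 1 and 2, an order of libraries close to that of Alas2. These examples were named after their values were seen.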
